A study of Mus musculus with 6 samples.

Results

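Cadherins and protocadherins are transmembrane proteins that hold cells together or let them recognise each other through calcium-binding extracellular repeats. The genes described here were all protein-coding genes of the RefSeq table on mouse build GRCm38 whose symbol begins with Cdh and a digit or with Pcdh. This gave 92 of 21887 protein-coding genes, of which 35 lie on their own and 57 lie in the protocadherin clusters of chromosome 18 (14 Pcdha, 22 Pcdhb and 21 Pcdhg genes). Clustered genes with shared peaks were taken as 1 locus, which left 58 loci: the 35 single genes, a Pcdha locus, a Pcdhg locus, Pcdhb13/Pcdhb14 and 20 single Pcdhb genes. Members were chosen by symbol, and the group itself was selected on called length and number of peaks in the 4 libraries used here. Its differences between genotypes are therefore given as a description, without a test.

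Classical cadherins (type I and type II) bind the same kind of cadherin on a neighbouring cell and are tied to actin through catenins. Atypical cadherins lack this link or use another anchor, and protocadherins serve recognition between cells, chiefly in the nervous system, where each neuron shows its own mix of clustered protocadherins. In blood-forming tissue, VE-cadherin (Cdh5) marks endothelium and the endothelial cells from which blood stem cells arise, and E-cadherin (Cdh1) is found on red cell precursors. The base 5-hydroxymethylcytosine (5hmC) is made from 5-methylcytosine by TET enzymes and is often found in the bodies and enhancers of active genes.

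The cells were Kit-enriched bone marrow cells of C57BL/6 mice with a floxed Tet2 gene and a tamoxifen-activated Cre, and all carried a retrovirus for the leukaemia fusion protein AML1-ETO. KO cultures had received 200 nM of 4-hydroxytamoxifen (4-OHT) for 4 days to excise Tet2, and flox cultures had received ethanol. Immature myeloid cells, positive for the GFP of the virus and for CD16/32 and negative for CD11b and Gr1, were sorted at passage 5, and DNA fragments with 5hmC were immunoprecipitated and sequenced in 2 libraries per group. The comparison asks how loss of Tet2 changes where 5hmC is found. Since 4-OHT was added to KO cultures alone, the effects of Tet2 loss, of the drug and of Cre activity cannot be told apart. The labels do not say that replicates were separate cultures, so their spread may be technical. The labelled cell type could not be checked, since the lists of 5hmC peaks hold no expression values. In such bulk samples, fewer cells with 5hmC at a site and less 5hmC per cell cannot be told apart.

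Each library gave 1 list of peaks, called by the authors. The lists held 116539 and 122101 peaks in KO replicates 1 and 2, and 118727 and 118522 peaks in flox replicates 1 and 2. The number of reads behind them is unknown. Called length is the number of bases under peaks in the gene span plus 5 kb at both ends, and the score of a peak is the authors' own value, -10 times the log10 of its p-value, which describes the peak within its library. Members held 503.467 and 500.262 kb of called sequence in KO replicates 1 and 2, against 506.686 and 489.45 kb in flox replicates 1 and 2. This was 0.456% and 0.450% of all called bases in KO and 0.447% and 0.444% in flox. No library stood apart by these sums.

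Most promoter windows of the members lay outside peaks, as did most windows of all protein-coding genes. RefSeq promoter windows on GRCm38.p6 were at hand for 22 member genes (25 windows), and the 250 bases before the start were searched for the dinucleotide CG, the usual site of 5-methylcytosine and 5hmC. A peak from each of the 4 libraries touched 3 of the 25 windows, those of Pcdh7, Cdh15 and Cdh18, where 4.94% of the windows of all protein-coding genes had one. The Cdh18 window belongs to a start well inside the gene span (22548898 to 23477491), not at its lower end. At least 1 library had a peak over 8 of the 25 windows (32.0%), against 13.5% of all windows, and 17 had none. The sequences of Pcdh7, Cdh15 and Cdh18 are shown with that of Pcdh19, which was called in flox alone, and that of Cdh22. The Cdh22 window had the most CG of the members and no peak over its 250 bases. Within 1 kb of it 3 libraries had a peak, and within 5 kb all 4 had one. The sequences run 5′ to 3′ on the strand of the gene and CG is in capitals. The windows lie at chr5:57717831-57718080 (plus strand) for Pcdh7, chr8:122848124-122848373 (plus) for Cdh15, chr15:23036213-23036462 (plus) for Cdh18, chrX:133688994-133689243 (minus) for Pcdh19 and chr2:165234738-165234987 (minus) for Cdh22.
Pcdh7: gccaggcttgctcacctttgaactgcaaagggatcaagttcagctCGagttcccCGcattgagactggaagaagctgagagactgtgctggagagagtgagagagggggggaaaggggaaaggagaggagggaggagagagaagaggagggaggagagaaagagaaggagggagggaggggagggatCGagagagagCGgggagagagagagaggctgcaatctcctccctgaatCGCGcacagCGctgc
Cdh15: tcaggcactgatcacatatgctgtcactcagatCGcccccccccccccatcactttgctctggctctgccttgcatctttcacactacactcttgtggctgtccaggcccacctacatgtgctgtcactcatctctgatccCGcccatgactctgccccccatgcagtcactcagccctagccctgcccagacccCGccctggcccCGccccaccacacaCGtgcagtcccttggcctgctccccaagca
Cdh18: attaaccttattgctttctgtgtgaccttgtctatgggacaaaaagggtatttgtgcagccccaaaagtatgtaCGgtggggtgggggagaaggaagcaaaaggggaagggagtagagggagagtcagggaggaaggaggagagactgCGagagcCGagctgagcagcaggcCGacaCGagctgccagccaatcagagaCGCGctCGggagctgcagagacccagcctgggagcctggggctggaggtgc
Pcdh19: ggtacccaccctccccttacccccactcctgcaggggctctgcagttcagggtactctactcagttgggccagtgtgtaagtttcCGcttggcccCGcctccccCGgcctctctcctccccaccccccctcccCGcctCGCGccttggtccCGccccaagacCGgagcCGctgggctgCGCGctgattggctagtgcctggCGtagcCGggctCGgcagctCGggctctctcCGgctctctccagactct
Cdh22: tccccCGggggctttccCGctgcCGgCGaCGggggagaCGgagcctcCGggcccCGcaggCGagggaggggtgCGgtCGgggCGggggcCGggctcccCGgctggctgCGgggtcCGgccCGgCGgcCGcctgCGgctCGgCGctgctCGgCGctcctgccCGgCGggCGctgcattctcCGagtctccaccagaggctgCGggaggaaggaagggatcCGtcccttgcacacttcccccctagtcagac

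CG occurred 7 times in the window of Pcdh7, 5 times in Cdh15, 8 times in Cdh18, 16 times in Pcdh19 and 30 times in Cdh22. The median was 10 both over the member windows and over all promoter windows, and 93.4% of all windows held at least 1 CG. The member windows with a peak in all 4 libraries had a median of 7, and those with no peak a median of 10. Over all protein-coding genes the medians were 12 and 9. The region over the Pcdh7 window (57717274 to 57718610) had scores of 211 and 188 in KO and 124 and 158 in flox. At Cdh15 (122847658 to 122848786) the scores were 116 and 94.8 in KO and 102 and 104 in flox, and at Cdh18 (23035860 to 23036996) they were 125 and 70.8 in KO and 71.0 and 61.5 in flox. The peaks covered the 250 bases of each of these windows in full in every library. A weaker region lay over the Pcdh19 window (133688027 to 133689359), which was not called in either KO library and had scores of 63.1 and 50.4 in flox.

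Called length followed the length of the gene, and the members differed widely in how densely it was laid. The median over the 58 loci was 18.3 called bp per kb (mean of the 4 libraries), against 32.3 bp per kb over all protein-coding genes. Some called sequence was found in 43 of the 58 loci. The other 15, or 25.9%, had none in any library, against 22.9% of all genes, and all 15 were Pcdhb genes. The 35 non-clustered genes had a median of 29.7 bp per kb. For the 21 member loci of at least 100 kb it was 29.3, against 36.9 for all genes of that length. Spearman's rho between span and called length was 0.87 over the 58 member loci and 0.61 over all genes. The 58 include the 15 Pcdhb loci with no called length. Over the 35 non-clustered genes it was 0.73. For loci of at least 100 kb it was 0.65 in members and 0.59 in all genes. It was 0.35 in delta protocadherins and -0.07 in Pcdhb loci. These values describe loci that share the same 4 libraries.

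**Figure D1:**
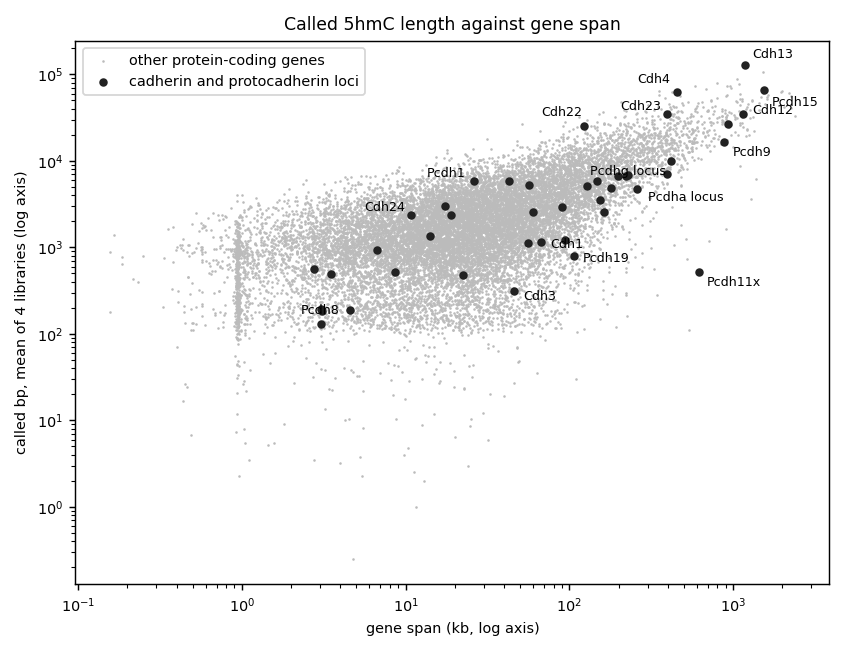
Called length per locus (bp, mean of the 4 libraries, log axis) against gene span (kb, log axis), with loci of no called length left out; black points are cadherin and protocadherin loci and grey points are other protein-coding genes. Cdh13, Cdh4 and Cdh22 lie high for their span, while Pcdh11x, with 0.829 bp per kb, lies far under the other long genes.

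Among type I cadherins, Cdh4 (R-cadherin, first known from the retina; chromosome 2, 179442423 to 179899377) was the densest with 135 bp per kb, at percentile 98.2 of genes of at least 100 kb. It held 59247 and 64573 bp in KO replicates 1 and 2, against 65492 and 63402 bp in flox replicates 1 and 2. The groups overlapped. Of its 70 regions, made by merging overlapping peaks of the 4 lists, 39 were called in every library. The strongest of these (179560626 to 179562708) had scores of 872 and 1065 in KO and 1008 and 904 in flox. Cdh15 (M-cadherin of muscle), with a peak over its start in every library, held 2584 and 2017 bp in KO and 2413 and 2433 bp in flox, or 81.4 bp per kb. Cdh1 (E-cadherin of epithelia; chromosome 8, 106603350 to 106670247) was sparse at 14.9 bp per kb. It held 1463 and 955 bp in KO, against 977 and 1177 bp in flox, all in 1 region (106605826 to 106607288) near the lower end of the gene. Its neighbour Cdh3 (P-cadherin, a placental and epithelial cadherin) held 0 and 473 bp in KO and 0 and 768 bp in flox, with no site called in more than 1 library. Cdh2 (N-cadherin of neural and mesenchymal cells; chromosome 18) held 6228 and 7640 bp in KO and 7059 and 6214 bp in flox, and a region at its upper end (16807953 to 16809193) was called in all 4 libraries.

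The 13 type II cadherins had a median of 29.7 bp per kb. Cdh22, a cadherin first described in pituitary and brain (chromosome 2, 165111501 to 165234924), had 193 bp per kb, the highest density of all member loci and percentile 99.7 of genes of at least 100 kb. Its called length was 27099 and 25650 bp in KO, against 23717 and 26286 bp in flox, and 17 of its 24 regions were called in every library. Cdh5 (chromosome 8, 104101613 to 104144504) also stood high at 110 bp per kb. It held 6196 and 5394 bp in KO and 5741 and 5931 bp in flox. A region just beyond its upper end (104147271 to 104149698) scored 579 and 1205 in KO and 751 and 761 in flox. Cdh24 had 115 bp per kb, but every called base of its interval also lies in the intervals of Acin1 and Psmb11, so its level cannot be told apart from theirs. At the low end were Cdh7, with 14.7 bp per kb, and Cdh8, with 17.3. Cdh7, a cadherin of the developing nervous system, held 2264 and 2381 bp in KO, against 3969 and 1563 bp in flox. Cdh11 (OB-cadherin, of osteoblasts and mesenchyme; chromosome 8) held 3511 and 3720 bp in KO, against 3608 and 3333 bp in flox, or 21.7 bp per kb.

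**Figure D2:**
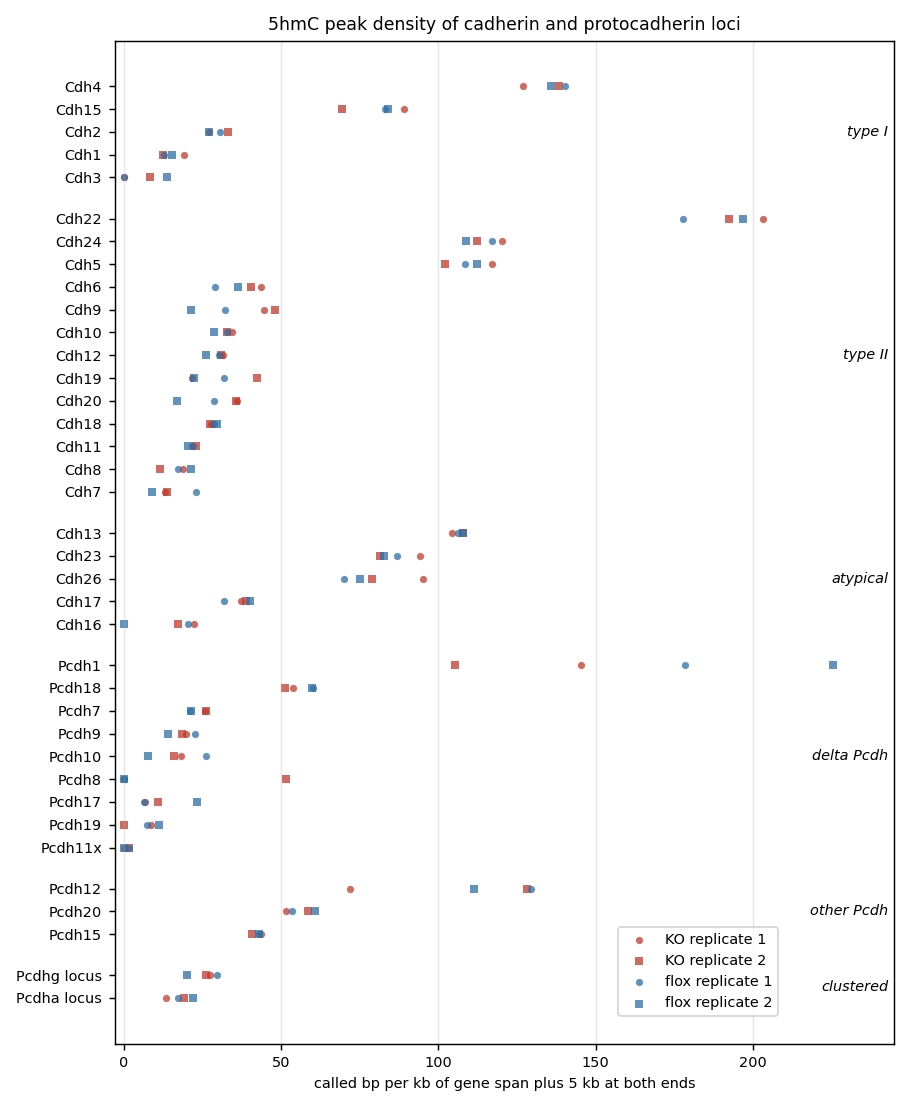
Called bp per kb of gene span plus 5 kb at both ends for the 35 non-clustered loci and the Pcdhg and Pcdha loci, by subfamily; red marks are the 2 KO libraries and blue marks the 2 flox libraries (circle, replicate 1; square, replicate 2). Cdh22, Cdh4 and Pcdh1 lie far to the right, and Pcdh1 has both KO marks left of both flox marks.

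Cdh13 carried more called sequence than any other member. It encodes T-cadherin, which is held in the membrane by a lipid anchor and has no cytoplasmic part (chromosome 8, 118140017 to 119324929). The gene held 124786 and 128713 bp in KO, against 126897 and 128660 bp in flox, or 107 bp per kb. The groups overlapped (log2 difference 0.00, SE 0.04). Of its 158 regions, 91 were called in all 4 libraries, and they lay along the whole gene: in 11 consecutive stretches of 100 kb the density ran between 59.2 and 191 bp per kb. Regions of 1 genotype were spread along it as well, with 5 KO-only regions (called in both KO libraries and in no flox library) and 7 flox-only regions (the reverse). The strongest constant region (119308770 to 119310323) scored 1100 and 1022 in KO and 909 and 1015 in flox. The widest region of any member was also in this gene (118469371 to 118472819, 3449 bp).

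The other atypical cadherins ranged between 14.95 and 86.2 bp per kb. Cdh23 (chromosome 10, 60302748 to 60696513) forms the tip links of inner ear hair cells together with Pcdh15. It held 38016 and 32825 bp in KO, against 35043 and 33390 bp in flox, and 24.3% of this length is shared with the intervals of Psap, Vsir and Gm17455. Cdh17, the liver and intestine cadherin, held 2596 and 2707 bp in KO and 2215 and 2799 bp in flox. The partner of Cdh23 in hair cells, Pcdh15 (chromosome 10, 73096277 to 74649831), is the longest member. Pcdh15 held 68356 and 63539 bp in KO, against 67182 and 67328 bp in flox, or 42.6 bp per kb, which is less per length than Cdh13 or Cdh23 had. Over consecutive 100 kb stretches of Pcdh15 the mean density of the 4 libraries ran between 16.0 and 85.0 bp per kb, and the sparsest stretch (73696277 to 73796276) had no called base in KO replicate 2.

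**Figure D3:**
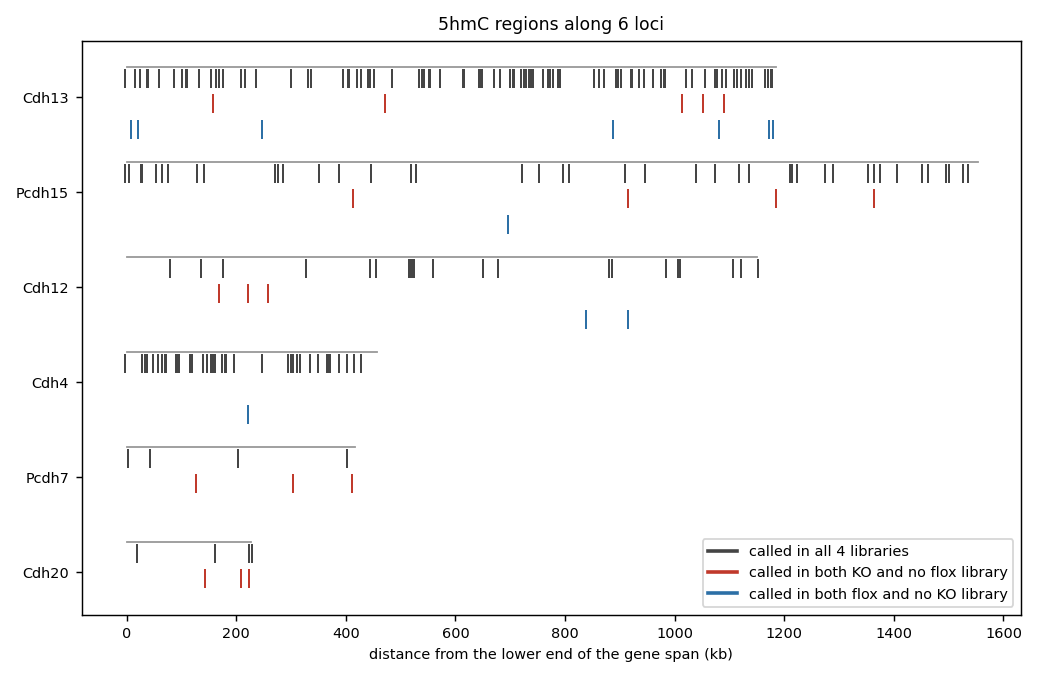
Positions of 5hmC regions along 6 loci, as distance from the lower end of the gene span (kb); in each locus the grey line is the span, black ticks mark regions called in all 4 libraries, red ticks KO-only regions and blue ticks flox-only regions. Constant regions run along the whole of Cdh13, Pcdh15 and Cdh4, and the 3 regions of 1 genotype in Pcdh7 and in Cdh20 are all KO-only.

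Delta protocadherins, the larger branch of the non-clustered protocadherins, differed widely in density. Pcdh1 (chromosome 18, 38185914 to 38212048), which in humans is known from airway epithelium, had 164 bp per kb, while Pcdh11x (chromosome X, 120290238 to 120910622) had 0.829. Pcdh11x stood at percentile 1.25 of genes of at least 100 kb. It held 0 and 1105 bp in KO, against 985 and 0 bp in flox, and 3 of its 6 stretches of 100 kb were empty in every library. The other X-linked member, Pcdh19, whose human counterpart is an epilepsy gene, held 1017 and 0 bp in KO and 845 and 1301 bp in flox (6.81 bp per kb). Both flox values come from the region over its promoter window. Pcdh9 (chromosome 14, 93013700 to 93892834) held 17591 and 16525 bp in KO, against 20128 and 12494 bp in flox. Pcdh17 held 681 and 1120 bp in KO and 671 and 2430 bp in flox. The spread between the flox libraries was larger than the difference between the groups at both genes. Among the remaining protocadherins, Pcdh12, an endothelial protocadherin next to Pcdh1, held 1963 and 3502 bp in KO and 3539 and 3041 bp in flox, and 43.2% of this is shared with Dele1 and Rnf14.

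The protocadherin clusters on chromosome 18 were sparse, apart from sites near the upper ends of the Pcdha and Pcdhg loci. In the Pcdha and Pcdhg clusters each gene joins its own first exon to exons used by the whole cluster, and 3 predicted gene models (Gm37013, Gm38666 and Gm38667) run across all clusters. The Pcdha locus (36930285 to 37188897) held 3565 and 5139 bp in KO, against 4592 and 5859 bp in flox, or 17.8 bp per kb. Its strongest region lay at the upper end (37187720 to 37188993), with scores of 430 and 415 in KO and 643 and 452 in flox. The Pcdhg locus (37661775 to 37841873) held 5188 and 4983 bp in KO, against 5600 and 3810 bp in flox, or 25.8 bp per kb. It also held the strongest constant region of all members (37812273 to 37814238). This region scored 1220 and 1114 in KO and 1602 and 931 in flox, above 99.8% to 99.97% of the peaks of its library.

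That site lies between the lower end of Pcdhgc3 and the upper end of the locus. The stretch between the lower end of Pcdhgc3 and the upper end of Pcdhgc5 had 80.1 bp per kb, against 27.2 over the whole Pcdhg span and 9.70 between Pcdhb1 and Pcdhb22. Called length in the Pcdhb stretch was 1199 and 2132 bp in KO, against 4046 and 2573 bp in flox, so both KO values lay below both flox values there. It rested on 2 and 3 peaks in KO and on 5 and 4 peaks in flox. Of the 21 Pcdhb loci, 6 had a peak in some library. Pcdhb7 (37341702 to 37345207) had a flox-only region of 1315 bp beside it, with scores of 75.7 and 86.6. Pcdhb2 held 720 and 0 bp in KO and 670 and 857 bp in flox, and Pcdhb13/Pcdhb14 held 0 and 616 bp in KO and 897 and 576 bp in flox. The longest Pcdhb loci with no peak in any library were Pcdhb16, Pcdhb18, Pcdhb19, Pcdhb3 and Pcdhb4.

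**Figure D4:**
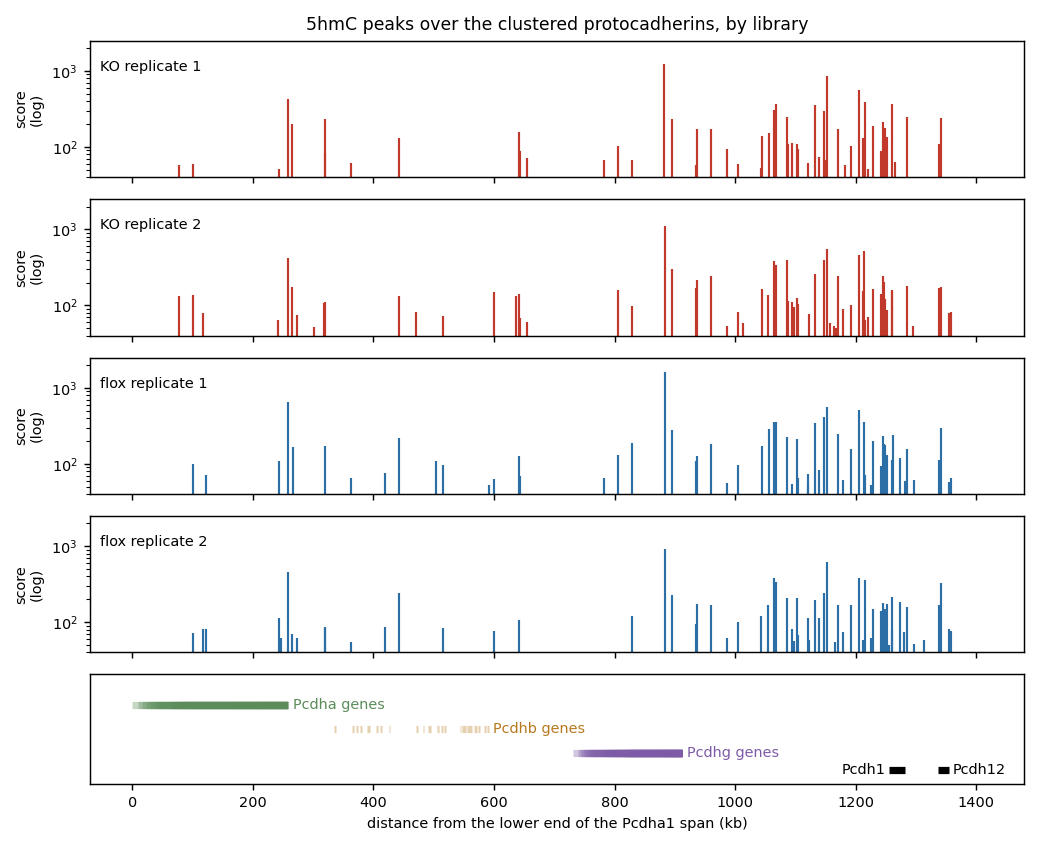
Peaks of each library over the protocadherin clusters and up to Pcdh12, as distance from the lower end of the Pcdha1 span (kb), with the height of each line the authors' peak score (log axis); the lowest panel marks the genes. The highest line in each library is in the Pcdhg genes, and lines are few over the Pcdhb genes and dense beyond the Pcdhg genes.

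Between KO and flox cells, no protein-coding gene passed limma's test on called length over 14128 genes (0.0% at an adjusted p under 0.05, and 868 genes or 6.14% at an unadjusted p under 0.05). A filter on a mean of at least 500 bp left 36 of the 58 member loci in this fit. Of these 36, 15 were lower in KO by scaled called length (41.7%) and 21 higher, where 54.6% of all genes tested were lower. The median log2 difference was 0.05 over member loci and -0.04 over all genes. By number of peaks in place of called length, 23 of the 36 were lower, and without the filter 19 of 43. The share over all genes is not given for these settings. The 23 include loci with equal peak numbers in every library, which fall below 0 through scaling alone. Examples are Cdh10, with 8 peaks in each library (-0.007), and Cdh24 and Pcdh18, with 2 in each (-0.005 at both). By subfamily, the log2 difference was above 0 at 10 of 13 type II cadherins and all 4 tested atypical cadherins. It was also above 0 at 2 of 4 type I cadherins and 4 of 8 delta protocadherins. All 3 of the other non-clustered protocadherins were below 0. Each of these turned sign in some alternatives (Pcdh12 in 4 of 13, Pcdh15 in 3 of 13 and Pcdh20 in 2 of 10). Among those above 0, Cdh13 (0.0023, SE 0.04) and Cdh5 (0.0009, SE 0.17) had fewer called bases in KO before scaling. Their sign turned without scaling. Every tested atypical cadherin turned sign in some of 13 alternatives: Cdh23 and Cdh26 in 1 each, Cdh17 and Cdh13 in 4 each. By number of peaks, the type II genes Cdh19, Cdh24, Cdh10 and Cdh11 fell below 0, and Cdh7 rose above 0. No direction of a subfamily is read from these counts. Of member loci of at least 100 kb, 14 of 21 were above 0, where 1180 of 2345 tested genes of that length were.

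Both KO libraries lay above both flox libraries at 7 member loci, where 14.6% of all genes had this order, and below at 3, where 20.7% had it. Because the called lengths of this contrast proposed the group, nothing is read from these counts. Of the 7, 5 were type II cadherins. Cdh9 (chromosome 15, 16728550 to 16857138), a cadherin of brain synapses, held 6189 and 6678 bp in KO, against 4458 and 2938 bp in flox (log2 difference 0.76, SE 0.23). It had 8 and 8 peaks in KO and 6 and 4 in flox, and 1 KO-only region (16859794 to 16860848), just beyond its upper end. Cdh20 (chromosome 1, 104768340 to 104995481), a cadherin of the developing nervous system, held 8521 and 8481 bp in KO, against 6774 and 3970 bp in flox (0.67, SE 0.25). Flox replicate 2 was the low library at both genes, and without it their differences were 0.51 and 0.34. Cdh20 had 3 KO-only regions in the upper part of the gene and no flox-only region. The uppermost (104990794 to 104991786) had scores of 79.6 and 60.7. A region called in all 4 libraries (104991814 to 104993256) begins just beyond it. With a gap of 200 bp allowed in merging, they would form 1 region and it would not count as KO-only.

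The other type II cadherins of this set differed less. Cdh6 (K-cadherin of the kidney; chromosome 15, 13028699 to 13176407) held 6850 and 6349 bp in KO, against 4553 and 5734 bp in flox (0.35, SE 0.19). Cdh12 (chromosome 15, 20448878 to 21598421), a brain cadherin, held 36685 and 35928 bp in KO, against 34927 and 30327 bp in flox (0.17, SE 0.09). At Cdh10, also a brain cadherin, the values were 7118 and 6816 bp in KO and 6814 and 5932 bp in flox (0.14, SE 0.16), so 1 KO library was 2 bp above a flox library. With weaker peaks left out (score under 100) the sign at Cdh10 turned (-0.07), and with the top 50000 peaks per library it was -0.18. Cdh9, Cdh20, Cdh6 and Cdh12 kept their sign in all 13 alternatives run, but not their size. Where the groups do not overlap, several of these alternatives cannot turn the sign. They are leaving out 1 library, other pseudocounts, no filter and a block for the replicate number. The kept sign is therefore no added support. The difference was between 0.25 and 1.01 at Cdh9, between 0.23 and 1.00 at Cdh20, between 0.09 and 0.52 at Cdh6 and between 0.09 and 0.35 at Cdh12. Without flox replicate 1 it was 0.18 at Cdh6, and without flox replicate 2 it was 0.09 at Cdh12.

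Pcdh7 (chromosome 5, 57716145 to 58133236), a delta protocadherin, held 11062 and 11200 bp in KO, against 9017 and 9147 bp in flox (0.29, SE 0.13). The 2 libraries of each group were close, and the gene had 14 peaks in each KO library and 11 and 10 in flox. It had 3 KO-only regions with scores between 51.1 and 88.3. Without peaks scored under 100 the sign turned (-0.09), and with the top 50000 peaks per library it was -0.34. Cdh26, a cadherin of epithelia, held 6360 and 5276 bp in KO, against 4684 and 5021 bp in flox (0.25, SE 0.19). By number of peaks Cdh26 stood at -0.01, with 6 and 5 peaks in KO and 5 and 6 in flox.

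Pcdh1 had the largest difference among the 3 loci where KO lay below flox. It held 5251 and 3808 bp in KO, against 6442 and 8151 bp in flox (-0.63, SE 0.23), and 4 and 4 peaks in KO and 6 and 7 in flox. A flox-only region inside the gene (38203173 to 38205830) had scores of 119 and 187 and was the widest region of 1 genotype in any member, with 2658 bp. Flox replicate 2 gave 2658 bp of it and flox replicate 1 gave 1024 bp. The 3 regions of Pcdh1 that were called in all 4 libraries included one near its lower end (38189753 to 38192215), with scores of 372 and 159 in KO and 239 and 216 in flox. Pcdh1 kept its sign in all 13 alternatives, and its difference was between -0.99 and -0.41. Here too, several alternatives could not turn the sign, since the groups do not overlap. Pcdh18, a delta protocadherin, held 1292 and 1231 bp in KO, against 1448 and 1444 bp in flox (-0.13, SE 0.27). Cdh18 (chromosome 15, 22548898 to 23477491), a brain cadherin, held 25998 and 25599 bp in KO, against 26905 and 27857 bp in flox (-0.07, SE 0.09). At Cdh18 the sign turned without peaks scored under 100 (0.08) and with the top 50000 peaks per library (0.31).

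**Figure D5:**
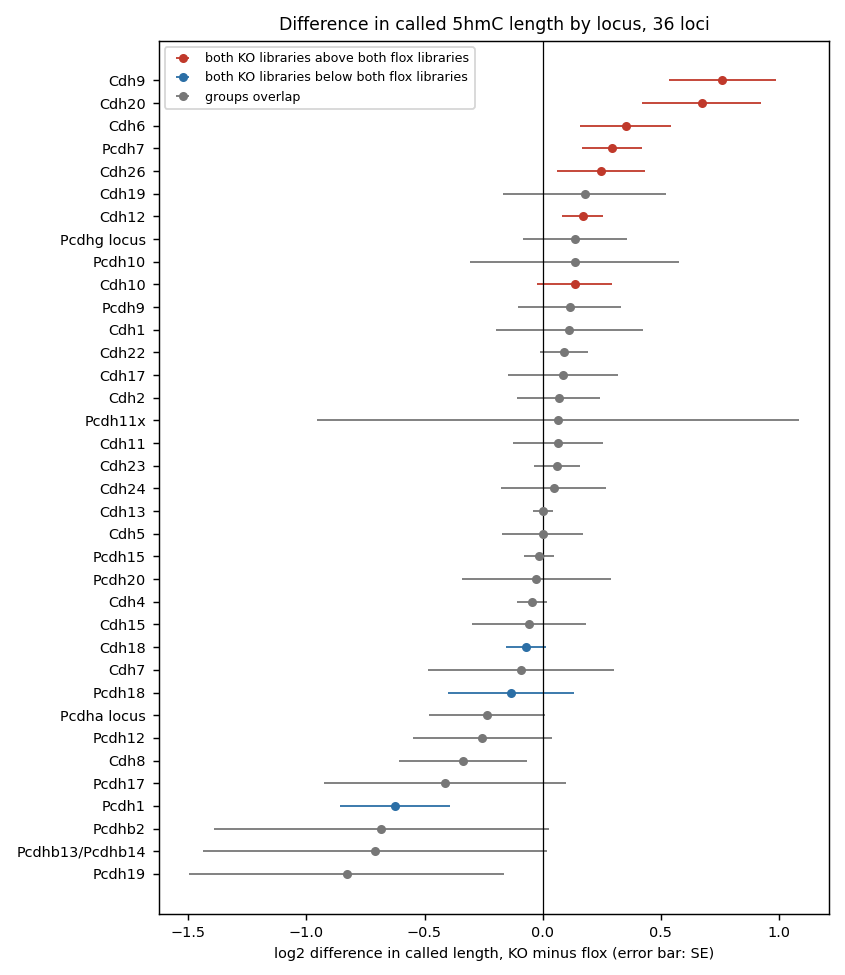
Log2 difference in called length, KO minus flox, for the 36 member loci with a mean of at least 500 bp; points are estimates and bars standard errors from limma, red marks loci with both KO libraries above both flox libraries, blue marks those below and grey marks those that overlap. Cdh9 and Cdh20 stand highest, Pcdh1 is the lowest of the blue points, and long genes such as Cdh13 and Pcdh15 have short bars near 0.

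Regions of 1 genotype took about the same share in the members as over all regions. Many lay in the longest genes, which also hold many regions of all kinds, such as Cdh13 with 158 of 763. Merging gave 763 regions in member loci, of which 324 (42.5%) were called in all 4 libraries, against 39.5% of all 174070 regions. KO-only regions numbered 24 (3.15%, against 3.0% of all regions) in 10 loci, and flox-only regions 22 (2.88%, against 2.96%) in 12 loci. The median width was 885 bp for KO-only and 852 bp for flox-only regions. KO-only scores ran between 50.2 and 150, with a median of 66.1, and flox-only scores between 50.4 and 187, with a median of 75.1. In each KO library, 13 of the 24 KO-only regions had a score in the lowest quartile of its list, and in each flox library this held for 8 of the 22 flox-only regions. The constant regions of the members had median scores of 136 and 149 in KO and 139 and 136 in flox.

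By locus, Pcdh15 had 4 KO-only regions and 1 flox-only region, Cdh12 had 3 KO-only and 2 flox-only regions, Pcdh9 had 2 of each, and Cdh18 had 1 KO-only and 2 flox-only regions. Cdh8, a brain cadherin, had 2 flox-only regions and no KO-only region. It held 7621 and 4663 bp in KO, against 6960 and 8643 bp in flox (log2 difference -0.34, SE 0.27), and KO replicate 2 was its low library. Without that library the difference was -0.01. The share of regions called in every library was 55.6% in atypical cadherins, 51.6% in type I cadherins, 37.3% in type II cadherins and 22.2% in delta protocadherins. The first 2 shares rest largely on 1 gene each. Cdh13 held 91 of the 120 such regions of atypical cadherins, and Cdh4 held 39 of the 47 of type I cadherins.

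The partners of the cadherins inside the cell were looked at as a list of 22 catenins and junction genes. Of 21 with enough called length, 11 were lower in KO and 10 higher (median log2 difference -0.01), where 54.6% of all genes were lower, and none passed the test over all genes. At 3 of them both KO values were under both flox values, an order seen at 20.7% of all genes. Ptprf, a receptor phosphatase found at junctions, held 6312 and 8893 bp in KO, against 12903 and 15275 bp in flox (-0.85, SE 0.20). Pkp2, a plakophilin of desmosomes, held 3020 and 3363 bp in KO and 6406 and 4145 bp in flox (-0.61). Pkp4, a related armadillo protein, differed by -0.43. They lay above at 4, an order seen at 14.6% of all genes. The largest difference of these was at the scaffold gene Magi1, which held 12540 and 12829 bp in KO, against 9328 and 8794 bp in flox (0.48, SE 0.12). Arvcf and Tjp1 both differed by 0.19.

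A second list held 27 other genes of the cadherin superfamily, such as Fat, Dachsous, Celsr, calsyntenin and desmosomal cadherin genes. Of 26 tested, 14 were lower in KO and 12 higher (median -0.07), against 54.6% lower over all genes, and none passed. Both KO values were under both flox values at 4 of them (20.7% of all genes) and above at 1 (14.6% of all genes). Clstn3, a calsyntenin of synapses, held 4516 and 3559 bp in KO, against 5432 and 5130 bp in flox (-0.34, SE 0.20). The desmosomal cadherin gene Dsc1 differed by -0.26, and Celsr1, a gene of planar cell polarity, by -0.21. The fourth was Celsr2, a relative of Celsr1 (-0.15). The 1 gene above was Fat3, a giant cadherin, with 17308 and 18460 bp in KO and 15102 and 14681 bp in flox (0.27, SE 0.10).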

How the data were processed

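5hmC immunoprecipitation libraries of 2 KO and 2 flox samples were used, grouped by their titles. The IgG control and the input are not analysed here. CASAVA 1.8, Bowtie, MACS 1.4 and the build GRCm38 (mm10) appear, without roles, in the submitters' processing notes. Settings, the control of the peak calling and duplicate handling were not given in the sources used here. Peaks were listed per library by the authors, and every deposited list was used whole. The score, which is -10 times the log10 of the p-value, and the p-value are the authors' own for each peak and served to describe or filter peaks alone. Both depend on depth, which is unknown, as is the precision it gives.

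Positions are counted from 1. Gene spans and promoter sequences came from RefSeq (GRCm38.p6). The gene table has no strand or exons, so exonic and intronic places were not assigned. Called bases per gene, scaled so that every library had an equal total, were fitted as log2(bp + 500) in R 4.3.3 by limma 3.58.1 (trend, robust, Benjamini-Hochberg) for genes that averaged 500 bp or more. Differences on this scale understate changes of genes with little called length. Regions were merged from peaks overlapping by 1 bp or more and counted again with bedtools 2.31.1. The fit was run on simulated data, but how large a difference it could find is not reported here. Python 3.11.15, pandas 2.3.3, numpy 2.4.6 and matplotlib 3.10.9 were used.

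Members and lists were chosen with earlier results of these data known. Named loci were the clusters, 10 well-known genes, the densest and sparsest of each subfamily, the 8 largest differences per direction where groups do not overlap, those with 2 or more regions of 1 genotype, and the 5 longest without called bases. Of the 2 other lists, up to 3 genes per direction were named. Loci outside this rule, such as Cdh24, Cdh15, Pcdh19 and Celsr2, were named after their values were seen. Alternatives were a score minimum of 100, the top 50000 peaks by score, the span alone, a gap of 200 bp in merging, pseudocounts of 100 and 2000 bp, no scaling, no filter, peak numbers, every clustered gene on its own, leaving out each library, and a replicate block.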

Additional observations from a re-analysis of the deposited data

How the results depend on the processing

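No gene passed limma's adjusted p of 0.05 in the 14 alternatives run, with 659 to 1236 genes at an unadjusted p under 0.05. The 15 member loci that were lower in KO became 23 of 36 by number of peaks (median log2 difference -0.01, against 0.05 by length) and 29 of 70 with every clustered gene on its own, and 15 to 18 when 1 library was left out. The count by number of peaks includes loci with equal peak numbers in every library. Leaving out 1 library gave a median log2 difference of 0.003 to 0.038 and a median density of 17.8 to 20.2 bp per kb. With a score of at least 100, there were 11 KO-only, 7 flox-only and 158 constant regions and a median density of 7.37 bp per kb. With the 50000 highest scored peaks these values were 9, 4, 140 and 5.14. The median density was 15.5 bp per kb over spans alone and 29.5 over loci with called bases. Of the values of named loci under alternatives, 365 moved by less than their spread and 44 by more. The 365 include fits without the filter and with the replicate block, which return the main difference by design. A fit that leaves out 1 library can move by no more than this spread, apart from rescaling. The 365 are therefore no measure of stability. The cause of the moves was not tested. The score thresholds use fewer peaks.

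Same-numbered libraries are not known to be paired: over 14128 genes their replicate differences had a correlation of 0.006. With the replicate number as a block, 0 genes passed, 874 had an unadjusted p under 0.05 and 15 member loci were lower in KO. In this balanced design the block leaves each log2 difference as it was, so the count of 15 could not change.

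With 2 libraries per group and unknown depth, a value of 0 does not show that 5hmC is absent, only that no peak reached the lowest score of 50.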

Other observations

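The interval between the Pcdhg genes and Pcdh1 (chromosome 18, 37841874 to 38185913), which holds Diaph1, Hdac3, Rell2, Fchsd1 and Arap3, had 107 called bp per kb, against 27.2 over the Pcdhg span and 9.70 over the Pcdhb genes. Its called length was 35950 and 36768 bp in KO and 37582 and 37422 bp in flox. Of the other delta protocadherins, Pcdh8 held 0 and 749 bp in KO and no called base in either flox library, and Pcdh10 held 1209 and 1049 bp in KO, against 1719 and 505 bp in flox. The stretch was chosen after its values were seen.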
